A study of Mus musculus with 2 samples.

Results

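Genes of transforming growth factor beta (TGF-β) and bone morphogenetic protein (BMP) signalling were compared between a pair of mouse lung squamous cell carcinoma (SCC) lines. The 10 genes were the ligands Tgfb1, Tgfb2, Tgfb3, Inhba, Bmp2 and Bmp4, the receptors Tgfbr1 and Tgfbr2, and the feedback genes Grem1 and Smad7. They were found by their symbols in the deposited table and were read by 20 of its 45101 probe sets, each a group of short oligonucleotides against 1 transcript or several. No probe set of the 10 genes named a further gene. In all, the table names 22479 genes.

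Both lines came from a line called KALLU, established from lung SCC of KA/KA mice, which carry a kinase-dead Ikkα knock-in on an FVB background. KALLU+ cells were sorted as Sca1-high and CD24-negative, KALLU- cells as Sca1-low and CD24-positive, both are described as CD44-positive, and each is 1 line. Both carry the Ikkα mutation, so the comparison holds no cells with intact IKKα. The samples are titled S1 and S2, with 1 sample per line, and S1 was read as KALLU+ because the series describes it as high in Sca1 and more tumorigenic than S2. Both were grown in DMEM with 10% fetal bovine serum and received no treatment, and total RNA was hybridised to Affymetrix Mouse Genome 430 2.0 arrays. In the deposited table each of the 3 probe sets of Cd24a was lower in S1, by signed folds of -39.7, -52.9 and -62.5. Sca1 is encoded by Ly6a, and its 1 probe set read -5.95, against the label. For this reason the names used are the line labelled S1 and the line labelled S2, and every direction rests on that reading.

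The values are 1 signed linear fold change per probe set, S1 over S2, with a minus sign where S1 was lower. The table used here gives no signals, detection calls, p-values or values per sample, so the level of each gene in each line is not known here, its brightness over background is not known, and no test between the lines could be made. Whether a marker of squamous cells was present could not be checked for the same reason. Signed folds were turned into log2 fold changes, and each gene was given the median of the probe sets naming it. Probe sets of 1 gene are repeated readings of the same RNA, not replicates of the line, so the SD given beside a median covers disagreement between probe sets only. To show the scatter around 0, 91 probe sets for olfactory and vomeronasal receptors, which lung tumour cells are assumed not to use, had log2 fold changes from -0.55 to 0.41. This range is called the olfactory range below. It comes from genes assumed silent, so it does not give the scatter of expressed genes or of repeated samples. Across the 10567 genes with more than 1 probe set, the pooled SD between probe sets was 0.49 on the log2 scale.

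TGF-β ligands are secreted in a latent form and, once released, bind the type II receptor TGFBR2, which recruits and phosphorylates the type I receptor TGFBR1. This passes the signal to SMAD2 and SMAD3, whereas BMPs act through other type I and type II receptors and through SMAD1, SMAD5 and SMAD9, and both branches share SMAD4. Gremlin binds BMPs outside the cell, and SMAD7 is an inhibitory Smad that activated receptors induce. In squamous epithelium TGF-β is known for restraining growth, and in advanced carcinoma for its part in epithelial–mesenchymal transition (EMT).

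The ligands stood on both sides of 0. Tgfb1 and Tgfb2 had negative medians in the line labelled S1, whereas Bmp2, Bmp4, Tgfb3 and Inhba had positive ones. The medians of both receptors and both feedback genes lay inside the olfactory range. Of the 10 gene medians, those of Bmp2 and Bmp4, or 2 genes, were higher in the line labelled S1 by 2-fold or more, where 4.81% of all genes were. None of the 10 was at least 2-fold lower, where 4.87% of all genes were. At 1.5-fold, 3 genes passed above (9.53% of all genes) and 1 below (11%), Tgfb3 and Tgfb1 being the added ones. At 4-fold Bmp2 was left alone above (0.988% of all genes) and no gene below (1.61%). In sign, 6 medians were above 0, as were 44.1% of all genes, and 4 were below, as were 55.5%. With 10 genes, 1 gene more or less moves such a share widely, so the counts are descriptive. Outside the olfactory range lay 4 genes above it, against 13.4% of all genes, and 1 gene below it (Tgfb1), against 11.9%. The median over the 10 genes was 0.11 on the log2 scale, beside -0.04 over all genes.

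Tgfb1 encodes the TGF-β ligand that is most widely made. It was read by 2 probe sets, whose signed folds were -2.91 and -1.33, or -1.54 and -0.41 on the log2 scale. Both were below 0 but far apart, and only the larger lay outside the olfactory range. The median log2 fold change was -0.97 (probe-set SD 0.80, 2 probe sets), just short of 2-fold and at percentile 5.06 of all genes. On the probe set 1420653_at, which read -2.91, alone Tgfb1 would count as at least 2-fold lower.

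Tgfb2, the isoform with the strongest need of betaglycan for receptor binding, was read by 4 probe sets, whose signed folds were -1.70, -1.57, -1.28 and -1.01. All 4 were below 0 and none reached 2-fold. The median log2 fold change was -0.50 (probe-set SD 0.34, 4 probe sets), inside the olfactory range and near its lower edge, at percentile 13.3 of all genes. The probe sets 1423250_a_at and 1450922_a_at, at -0.77 and -0.65 on the log2 scale, lay below that range. Tgfb3, the isoform known from palate fusion, went the other way, with a signed fold change of 1.65 at its 1 probe set, a log2 value of 0.72. This lay above the olfactory range and under 2-fold, at percentile 92.4 of all genes. By these medians, as deposited, the isoforms of TGF-β did not share a direction.

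Inhba encodes the subunit that forms activin A, which signals through SMAD2 and SMAD3 like TGF-β. Its 2 probe sets differed, 1422053_at reading a signed fold change of 2.35 and 1458291_at one of -1.05. The median log2 fold change was 0.58 (probe-set SD 0.92, 2 probe sets), at percentile 90.5 of all genes. The spread between these probe sets exceeded the median, so the call of a higher Inhba depends on which is read.

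Bmp2 had the largest value of the 10 genes. Its 1 probe set (1423635_at) had a signed fold change of 4.56, a log2 value of 2.19, at percentile 99.3 of all genes. Bmp4, the closest relative of Bmp2 among the BMPs, had a signed fold change of 2.05 at its 1 probe set (1422912_at), a log2 value of 1.04 and percentile 95.5. Bmp4 lay just past 2-fold, and neither BMP has another probe set against which its value can be read.

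**Figure D1:**
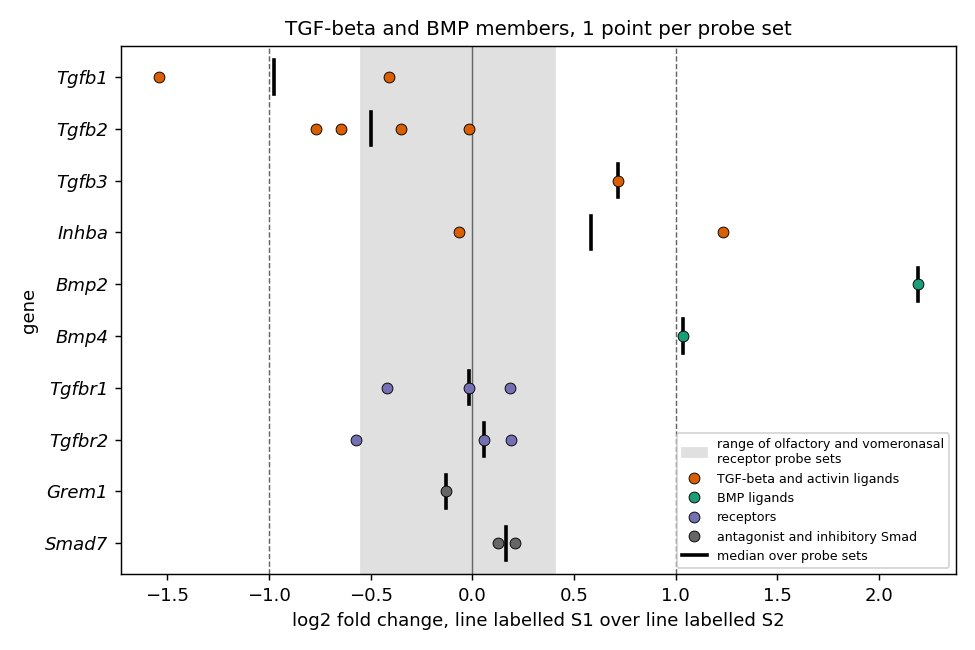
Log2 fold change (horizontal axis) of the line labelled S1 over the line labelled S2 at each probe set of the 10 genes (vertical axis). Points are probe sets, black bars are gene medians, the grey band is the range of the olfactory and vomeronasal receptor probe sets (-0.55 to 0.41) and dashed lines mark 2-fold. Bmp2 (2.19) and Bmp4 (1.04) lie past the upper line, 1 probe set of Tgfb1 lies past the lower line at -1.54, and the probe sets of Inhba lie apart.

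The promoters of 4 ligands are shown because the ligands are where the 10 genes parted, with Tgfb1 and Tgfb2 below 0 and Inhba and Bmp4 above it. The sequences are from RefSeq, build GRCm38.p6, whose promoter table holds 7 of the 10 genes, and each gives the 250 bases before the annotated transcript start in the direction of transcription. Capitals mark matches on either strand to a SMAD-binding element (CAGAC or GTCTG), a GC box (GGGCGG or CCGCCC) or a TATA element (TATAAA or TTTATA).
Tgfb1, chr7:25686752-25687001, plus strand: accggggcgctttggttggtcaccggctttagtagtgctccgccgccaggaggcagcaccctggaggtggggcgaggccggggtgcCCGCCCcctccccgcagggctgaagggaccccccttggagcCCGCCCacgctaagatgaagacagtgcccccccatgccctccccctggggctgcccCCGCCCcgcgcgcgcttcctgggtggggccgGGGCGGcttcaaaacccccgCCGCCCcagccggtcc
Tgfb2, chr1:186705990-186706239, minus strand: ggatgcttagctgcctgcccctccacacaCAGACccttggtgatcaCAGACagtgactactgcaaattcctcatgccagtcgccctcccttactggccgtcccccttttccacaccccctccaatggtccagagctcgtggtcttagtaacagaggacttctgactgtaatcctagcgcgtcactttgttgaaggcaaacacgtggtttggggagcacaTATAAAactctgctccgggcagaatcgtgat
Inhba, chr13:16011601-16011850, plus strand: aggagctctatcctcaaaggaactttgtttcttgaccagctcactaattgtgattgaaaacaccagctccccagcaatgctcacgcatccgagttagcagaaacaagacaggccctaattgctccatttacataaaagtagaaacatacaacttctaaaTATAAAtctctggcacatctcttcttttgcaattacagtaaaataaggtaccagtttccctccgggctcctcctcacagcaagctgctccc
Bmp4, chr14:46390670-46390919, minus strand: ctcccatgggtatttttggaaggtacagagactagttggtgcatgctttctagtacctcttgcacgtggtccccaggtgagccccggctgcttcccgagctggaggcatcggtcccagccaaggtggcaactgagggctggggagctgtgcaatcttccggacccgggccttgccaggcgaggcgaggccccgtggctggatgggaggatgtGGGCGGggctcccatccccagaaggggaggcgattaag

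These ligand promoters differ in make-up. The Tgfb1 window is 75.2% G and C and holds 5 GC boxes and no TATA element. The Tgfb2 window is 53.6% G and C and holds a TATA element starting at position -31 from the transcript start, with a pair of SMAD-binding elements starting at -221 and -204. The Inhba window holds a TATA element starting at -91 and is 43.2% G and C, and the Bmp4 window holds 1 GC box starting at -38 and is 63.2% G and C. Of 32851 promoter windows of this length, 42.2% hold a SMAD-binding element, 32.7% a GC box and 12.4% a TATA element. The matches are descriptions of letters and were not tested as sites.

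The medians of both receptors lay near 0. Tgfbr1, the type I kinase, had signed fold changes of -1.34, -1.01 and 1.14 at its 3 probe sets, with a median log2 fold change of -0.02 (probe-set SD 0.31). Tgfbr2, the type II kinase, had signed fold changes of -1.49, 1.04 and 1.14 at its 3 probe sets, with a median log2 fold change of 0.06 (probe-set SD 0.41). Each receptor had probe sets of both signs, and the lowest of each was the one whose suffix marks probes shared by several transcripts of the gene. That of Tgfbr2, at -0.57 on the log2 scale, lay just below the olfactory range. The medians lay at percentiles 53.5 and 63.6 of all genes. Without p-values or an interval this does not show that the receptors were equal.

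Of the feedback genes, Smad7 had signed fold changes of 1.09 and 1.16 at its 2 probe sets, a median log2 fold change of 0.17 (probe-set SD 0.06). Grem1 had a signed fold change of -1.09 at its 1 probe set, a log2 value of -0.13. Both lay inside the olfactory range, and the probe sets of Smad7 were the closest to each other of the 6 genes with more than 1. Across those 6 genes the pooled SD between probe sets was 0.49, the same to 2 decimals as over all genes. By probe sets, 3 of the 20 were at least 2-fold higher (6.73% of all probe sets) and 1 was at least 2-fold lower (4.72%). Past 4-fold lay 1 probe set above (1.36%) and none below (1.41%). Outside the olfactory range lay 8 of the 20, beside 28.3% of all probe sets.

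**Figure D2:**
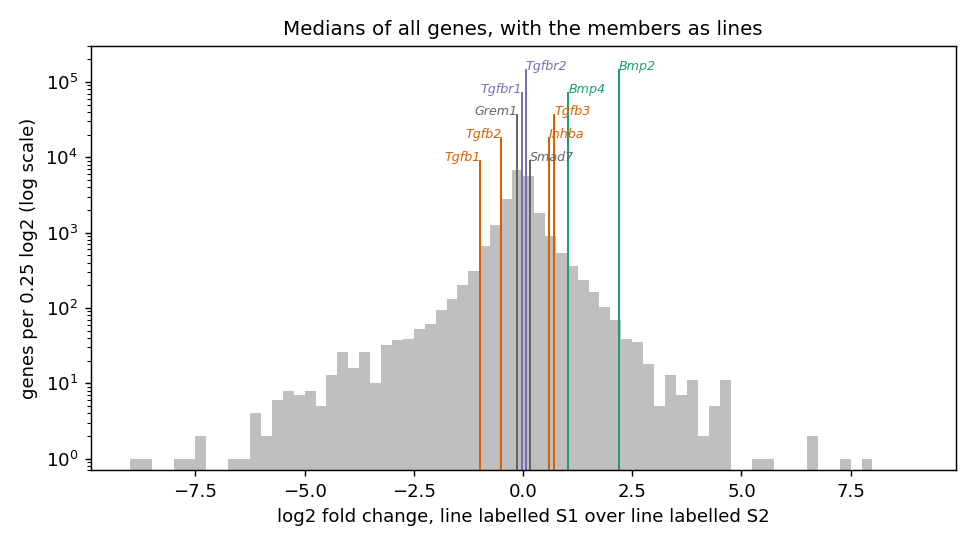
Number of genes (vertical axis, log scale) per 0.25 of median log2 fold change (horizontal axis), over all 22479 genes, with the 10 genes drawn as coloured lines whose heights only separate the names. Tgfb1 lies at percentile 5.06 and Bmp2 at percentile 99.3, while Tgfbr1, Tgfbr2 and Grem1 lie near the centre.

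To place the 10 genes in their pathway, 9 lists of ligands, receptors, Smads, regulators and response genes were read beside them, together 113 genes in the table. In the line labelled S1, 5 of them were higher by 2-fold or more and 13 were lower by as much, beside 4.81% and 4.87% of all genes. The higher ones were Ctgf, Bmp2, Id4, Itgb8 and Bmp4. Among the lower ones were Il11, Snai1, Igfbp3, Ltbp2, Fstl3, Smad6, Nbl1, Pmepa1, Bmper, Gdf15, Tagln and Tgfbr3. The median over the 113 genes was -0.12 on the log2 scale. The array's probe sets for bacterial poly-A control RNAs had a median log2 fold change of -0.45 over 24 probe sets, but whether these RNAs were added to the samples is not given in the sources used here. With the values centred on them, the counts became 10 higher (8.85%) and 8 lower (7.08%), beside 10.1% and 2.76% of all genes. The median of all genes then moved from -0.04 to 0.41, so the balance of the counts depends on scaling.

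No other ligand lay as far above 0 as Bmp2. Of 14 BMP and GDF ligands in the table, Bmp2 and Bmp4 were the only ones at least 2-fold higher (14.3%, beside 4.81% of all genes). None was at least 2-fold lower, and the list median was 0.15 on the log2 scale. Centred on the poly-A probe sets the count was again 2 of 14 higher, but beside 10.1% of all genes. None was then at least 2-fold lower, and the list median was 0.59, beside 0.41 over all genes. A list of 15 TGF-β, activin and nodal ligands also held related genes, among them Inha, Lefty1, Lefty2 and Gdf15. Of the 15, none was at least 2-fold higher, and 1 was at least 2-fold lower (6.67%, beside 4.87% of all genes). That gene was Gdf15, a stress-induced member of the family, with a log2 value of -1.32 at its 1 probe set. The median of that list was -0.24, and 0.21 when centred on the poly-A probe sets. On that centring 2 of the 15 were at least 2-fold higher (13.3%, beside 10.1% of all genes) and none was at least 2-fold lower.

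As deposited, the extracellular antagonists lay mostly below 0 in the line labelled S1. Of 17 in the table, 13 had negative medians, beside 55.5% of all genes. None was at least 2-fold higher, while 4 were at least 2-fold lower (23.5%, beside 4.87% of all genes). Fstl3, Nbl1 and Bmper were among these. Fstl3, a follistatin-like protein that binds activins, had a log2 value of -1.58. Nbl1, a secreted BMP antagonist also called DAN, had a log2 value of -1.53, and Bmper, which binds BMPs in the extracellular space, had a log2 value of -1.35. Each of these genes was read by 1 probe set. Noggin and chordin, the best known BMP antagonists, had log2 values of 0.02 and -0.27, inside the olfactory range. The list median was -0.27 as deposited and 0.17 when centred on the poly-A probe sets, where 3 of the 17 were at least 2-fold lower (17.6%, beside 2.76% of all genes) and 1 was at least 2-fold higher (5.88%, beside 10.1%).

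Among 17 receptors and co-receptors, 1 was at least 2-fold lower (5.88%, beside 4.87% of all genes) and none at least 2-fold higher. The list median was -0.02, and centred on the poly-A probe sets no receptor was past 2-fold. The one lower as deposited was Tgfbr3, which encodes betaglycan, the co-receptor that presents TGF-β2. Its 2 probe sets had log2 values of -1.67 and -0.70, both below 0, with a median of -1.19 (probe-set SD 0.68). Bmpr1b, a type I BMP receptor, had log2 values of -2.65, -0.94 and -0.85 at its 3 probe sets, so that all were below 0 and the median of -0.94 fell just short of 2-fold. Bmpr2, the type II BMP receptor, was spread from -0.33 to 1.78 over 3 probe sets, with a median of 0.47.

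Of 8 Smads, Smad6 alone was at least 2-fold lower (12.5%, beside 4.87% of all genes) and none was at least 2-fold higher. Centred on the poly-A probe sets, 1 was higher and 1 lower (12.5% each, beside 10.1% and 2.76% of all genes). Smad6, an inhibitory Smad of the BMP branch, had a log2 value of -1.55 at its 1 probe set, in contrast to 0.17 for Smad7. Smad3, which carries the TGF-β signal, had log2 values of -1.32, -0.94 and -0.48 at its 3 probe sets, with a median of -0.94 (probe-set SD 0.42). All 3 were below 0, and the median fell short of 2-fold. Smad1, Smad4 and Smad5 had medians of 0.14, -0.05 and 0.29 on the log2 scale.

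Storage and release of latent TGF-β went both ways. Of 10 genes in the table, Itgb8 was at least 2-fold higher and Ltbp2 at least 2-fold lower. Each is 10% of the list, beside 4.81% and 4.87% of all genes. Centred on the poly-A probe sets, 2 were at least 2-fold higher (20%, beside 10.1% of all genes) and 1 lower (10%, beside 2.76%). Itgb8, the β8 integrin subunit that binds latent TGF-β and releases it, had a log2 value of 1.60 at its 1 probe set. Ltbp2, a microfibril protein of the latent TGF-β binding family, had a log2 value of -1.62 at its 1 probe set. Of the same family, Ltbp1 had a median log2 fold change of 0.62 over 3 probe sets and Ltbp3 one of -0.92 over 4. Thbs1, which can activate latent TGF-β, had a median log2 fold change of -0.94 over 3 probe sets.

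**Figure D3:**
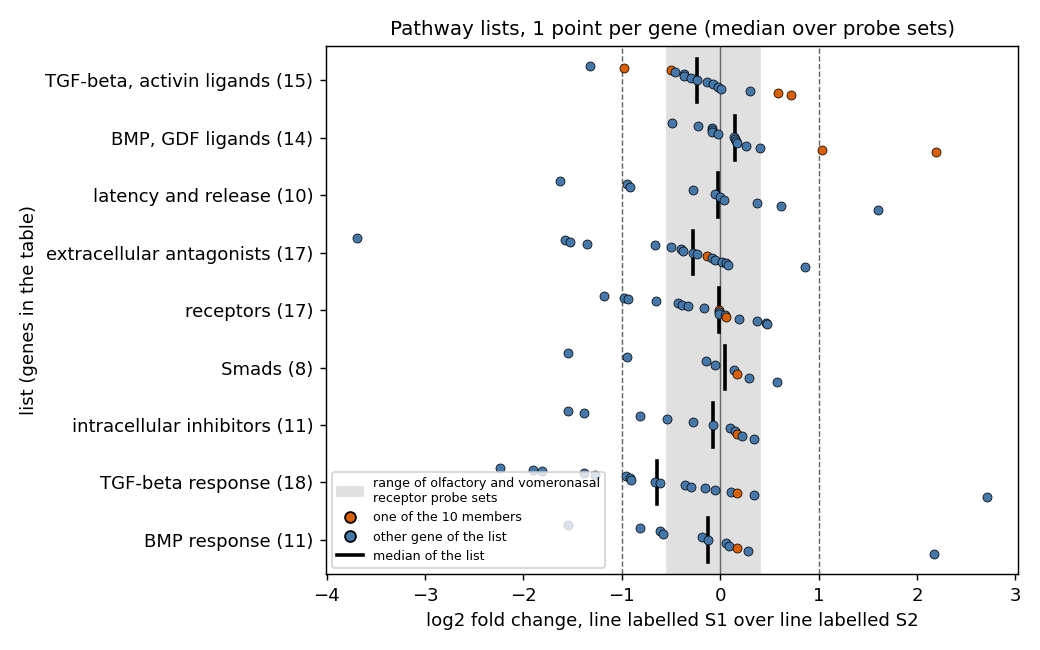
Median log2 fold change (horizontal axis) of every gene of the 9 pathway lists (vertical axis, with the number of genes in the table). Points are genes, with the 10 genes in orange, black bars are list medians, the grey band is the olfactory range and dashed lines mark 2-fold. The TGF-β response list has the lowest median (-0.64), and the BMP ligands have 2 points past the upper line, both among the 10 genes.

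Genes known to be induced by TGF-β were mostly lower in the line labelled S1. Of 18 in the table, 14 had negative medians, beside 55.5% of all genes. By 2-fold or more 5 were lower (27.8%, beside 4.87% of all genes) and 1 was higher (5.56%, beside 4.81%). The list median was -0.64 on the log2 scale, and -0.19 when centred on the poly-A probe sets, where all genes had a median of 0.41 and 3 of the 18 were at least 2-fold lower (16.7%, beside 2.76% of all genes). Il11, a cytokine of the IL-6 family, had a log2 value of -2.24 at its 1 probe set. Igfbp3, which binds insulin-like growth factors, had log2 values of -2.38 and -1.25. Snai1, a transcription factor of EMT that represses E-cadherin, had a log2 value of -1.90 at its 1 probe set.

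Pmepa1, a transmembrane feedback inhibitor of TGF-β signalling, had log2 values of -2.20, -1.39 and -0.38 at its 3 probe sets. Tagln, an actin-binding protein of smooth muscle and myofibroblasts, had a log2 value of -1.27 at its 1 probe set. Ctgf, a matricellular protein that is also induced by YAP, was the 1 gene of the list at least 2-fold higher, with a signed fold change of 6.55 and a log2 value of 2.71 at its 1 probe set. Fn1 and Cdkn1a had medians of -0.92 and -0.96.

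Several of these genes also mark fibroblasts, and most fibroblast markers had negative medians in the same line. Of 10 such markers, 8 had negative medians, beside 55.5% of all genes. By 2-fold or more 4 were lower (Cdh11, Mfap5, Fap and Pdgfrb), or 40%, beside 4.87% of all genes, and none was higher. Medians ran from -5.44 to 0.42 on the log2 scale. Dcn (0.42) and Thy1 (0.17) lay above 0, and Col1a2 had a median of -0.11. Col1a1, with a median of -0.91, stands on both lists. None of 7 squamous, 7 immune or 5 endothelial markers was past 2-fold by its median. The part of fibroblast-like cells in the lower response genes was not tested, and in bulk RNA fewer cells of a kind and less RNA per cell cannot be told apart.

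Genes known to be induced by BMP lay on both sides of 0, whereas Bmp2 and Bmp4 themselves were higher. Of 11 in the table, 1 was higher by 2-fold or more and 1 was lower by as much (9.09% each, beside 4.81% and 4.87% of all genes). The list median was -0.12 on the log2 scale, and 0.32 when centred on the poly-A probe sets. On that centring 1 was again higher and 1 lower, beside 10.1% and 2.76% of all genes. Outside the olfactory range lay 1 gene above it, against 13.4% of all genes, and 4 below it, against 11.9%. The gene above it was Id4, an inhibitor of basic helix-loop-helix factors, with log2 values of 1.69, 2.18 and 2.69 at its 3 probe sets, all past 2-fold. Its relatives Id1 and Id3, which are the usual readouts of BMP signalling, had log2 values of 0.09 and 0.05, inside the olfactory range, and Id2 had a median of -0.62. Below the range with Id2 lay Smad6, the gene at least 2-fold lower, Bambi (-0.81) and Atoh8 (-0.58).

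**Figure D4:**
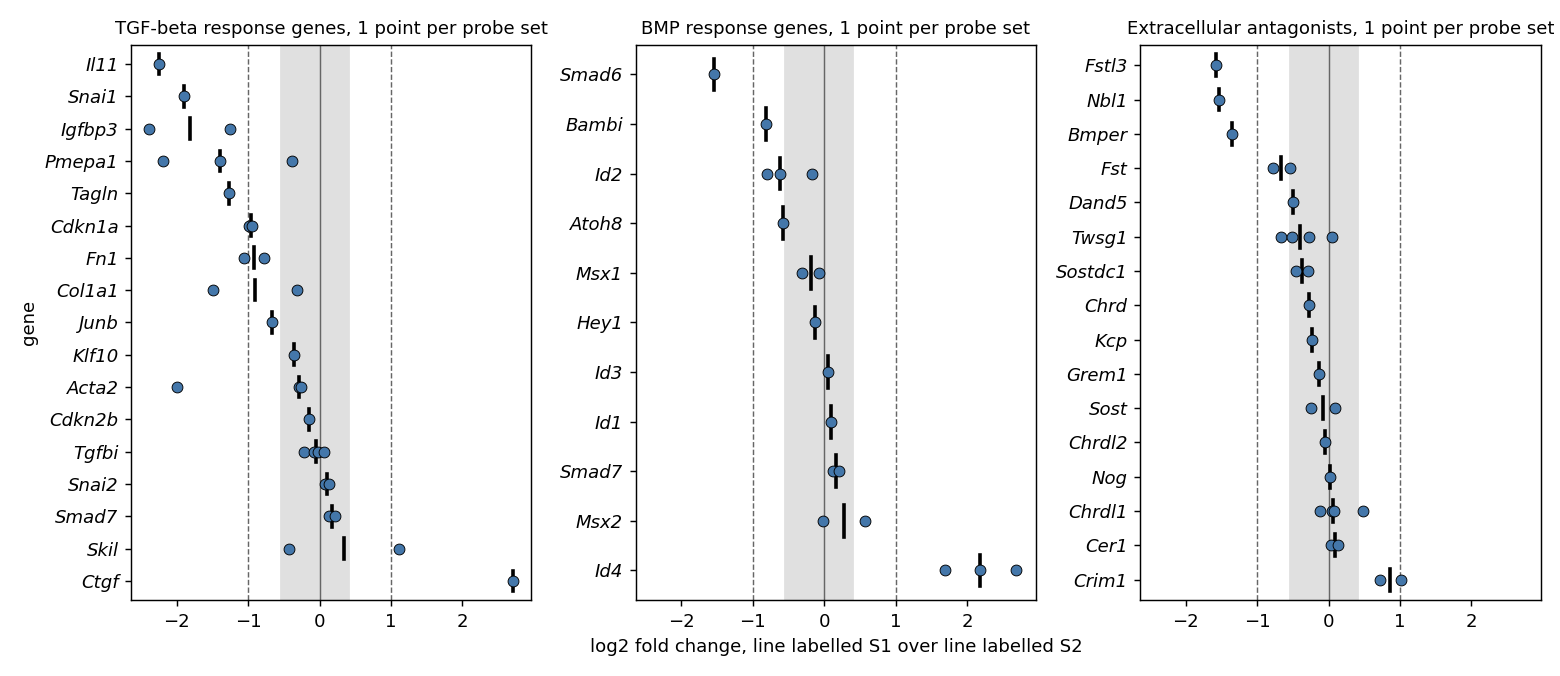
Log2 fold change (horizontal axis) at each probe set of genes of the TGF-β response, BMP response and extracellular antagonist lists (vertical axes), without genes not reported here. Points are probe sets, black bars are gene medians, the grey band is the olfactory range and dashed lines mark 2-fold. Ctgf (2.71) and Id4 (2.18) stand at the high end of their lists, and Fstl3 (-1.58), Nbl1 (-1.53) and Bmper (-1.35) at the low end of the antagonists.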

How the data were processed

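RNA of 2 cultured lines (1 sample each) was hybridised to Affymetrix Mouse Genome 430 2.0 arrays. The submitters' processing notes name MAS5, and the authors' methods name Partek Genomics Suite, with versions, normalization and the number of arrays behind each value not given in the sources used here. The authors deposited a single column of signed linear fold changes, S1 over S2, 1 per probe set, which is their own comparison and the sole measurement used here. None of its values lies between -1 and 1. The number of columns of values without a sample here was 0.

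Signed log2 fold changes were computed from them. The table has 45101 probe sets, of which 5797 (12.9%) lack a gene symbol and 1280 carry more than 1 symbol and were counted for each. A gene took the median over its probe sets, and 2-fold was the threshold of size. Lists, the olfactory range, the poly-A centring (24 probe sets) and the members were chosen with earlier results of these data known. Of 151 listed symbols, 144 matched as written, 1 by a RefSeq synonym and 6 were not matched and are not analysed here. Named beyond the 10 genes were pathway genes past 2-fold with all probe sets of 1 sign (16 genes, at most 20). Some genes of the lists are counted but not reported here by name or drawn with a label. Bmpr1b, Bmpr2, Smad1, Smad3, Smad4, Smad5, Thbs1, Fn1, Cdkn1a, Col1a1, Col1a2, Dcn, Thy1, Id1, Id2, Id3, Bambi, Atoh8, noggin and chordin were added after their values were seen. So were the genes named for a probe set past 2-fold with a median under it. As a check of the code only, the steps were run on simulated data with large planted changes. Scatter between probe sets there was smaller than in these data. Python 3.11.15, numpy 2.4.6, pandas 2.3.3 and matplotlib 3.10.9 were used.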

Additional observations from a re-analysis of the deposited data

How the results depend on the processing

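No paired analysis was possible because there is 1 sample per line and only their ratio was deposited, which also left no replicate to leave out. The bound for a shift was 0.49 on the log2 scale for a gene (the pooled probe-set SD) and 1.5 times for a count. Of 115 recomputed values, 97 stayed within these bounds and 18 moved.

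By the probe set with the largest change, Tgfb1 was -1.54, Inhba 1.23 and Tgfbr2 -0.57 on the log2 scale. Of the 10 genes 3 were then at least 2-fold higher and 1 was at least 2-fold lower, and 13 of the 113 pathway genes were higher and 22 lower. That rule takes the larger change at every gene with more than 1 probe set. The share of all genes past 2-fold under it was not computed, so these counts have no background. With the poly-A controls set to 0, 4 of the 10 genes were at least 2-fold higher, beside 10.1% of all genes, with Tgfb3 and Inhba the added ones. Of the pathway genes 10 were then higher and 8 lower. These counts follow from the construction of that shift. Tgfbr1 and Grem1 changed sign under it, to 0.43 and 0.32, while Tgfb1 was -0.53 and Tgfb2 -0.05. At 1.5-fold, 1 of the 10 genes (11% of all genes) and 3 of their probe sets (10.7% of all probe sets) were lower. Of the 113 pathway genes 8 were higher and 28 lower, beside 9.53% and 11% of all genes. At 4-fold, 1 of the 10 genes (0.988% of all genes) and 1 probe set (1.36% of all probe sets) were higher and 0 probe sets (1.41%) lower. Of the 113 pathway genes 3 were higher and 2 lower, beside 0.988% and 1.61% of all genes. By the mean over probe sets, on centring on all probe sets and with probe sets naming a gene alone, every one of these values stayed within the bounds. Signs near 0 did change. By the mean Tgfbr2 was -0.11, which left 5 of the 10 genes above 0 and 5 below. Centred on all probe sets Tgfbr1 was 0.003, which left 7 above 0 and 3 below. Without probe sets whose suffix marks shared probes the values run also stayed within them, but Grem1 had no probe set left. Bmp2, Bmp4 and Tgfb3, with 1 probe set each, cannot move by the rule for probe sets, which says nothing of their stability. Signal over background is unknown, so whether a value near 0 is an unchanged gene or an undetected one cannot be read.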

Other observations

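Some pathway genes had a probe set past 2-fold while their median was under it. This marks nearness to the 2-fold line as well as disagreement between probe sets. At Ltbp3 (-1.13 to -0.74, probe-set SD 0.16), Fn1 (SD 0.20) and Crim1 (SD 0.20) the probe sets lay close together. Of the 62 pathway genes with more than 1 probe set, 17 (27.4%) had a probe set past 2-fold while the median was under it, beside 12.3% of the 10567 such genes in the table. These shares were not matched for the number of probe sets per gene, and the difference was not tested. Of the 17 genes, 8 had a higher and 9 a lower probe set past 2-fold. On the higher side were the receptors Bmpr2, Bmpr1a and Acvr2a, the signal carrier Smad2, the Smad co-repressor Skil, the BMP-binding membrane protein Crim1, the latency protein Ltbp1, and Inhba. Skil had log2 values of 1.11 and -0.42, a wider contrast than that of Inhba, and Smad2 had log2 values of 1.07 and 0.09. On the lower side were Tgfb1, Smad3, Acvrl1, Bmpr1b, Ltbp3, Fn1, Col1a1, Acta2 and Itgav. Acta2, which encodes smooth muscle actin and marks myofibroblasts, had log2 values of -1.99, -0.29 and -0.26, and Acvrl1, a type I receptor best known from endothelium, had log2 values of -1.41 and -0.54.

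The 5 probe sets of the 10 genes whose suffix marks probes shared by several transcripts of a gene had log2 values from -0.77 to -0.13, with a median of -0.57. These read Tgfb2, Tgfbr1, Tgfbr2 and Grem1 only. The 14 without a suffix had a median of 0.09 and ranged from -1.54 to 2.19, and they include every probe set of Tgfb1, Tgfb3, Inhba, Bmp2 and Bmp4. The contrast therefore mixes type of probe set with gene. Over the whole table the corresponding medians were -0.09 (4426 probe sets) and -0.01 (36143 probe sets).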
